A study of Rattus norvegicus with 10 samples.

Results

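The 10 genes followed here encode acute phase plasma proteins, the blood proteins whose synthesis by the liver changes with inflammation or tissue injury. They were Lcn2, Orm1, A2m, Crp, Hp, Fga, Fgb, Fgg, Itih4 and Lbp. Their probes were found through the accession that the array design gives each probe, which matched 13 of the 41012 probes of the array, for 10 of the 13837 genes named on it. Crp, Fgb and Fgg had 2 probes each and the other genes 1. All 13 probes were well above background on all 10 arrays.

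Each array measured the liver RNA of a single male Sprague Dawley rat. The agent was sulfur mustard (SM), which alkylates DNA, proteins and thiols and blisters the skin. The SM group (n = 4) received a single subcutaneous injection of SM at 3.5 mg/kg, 0.7 of the LD50, in propylene glycol. The control group (n = 3) received the same volume of solvent without SM. The SM + MSTF group (n = 3) received SM like the SM group and, 1 h later by the intragastric route, MSTF at 120 mg/kg. MSTF is a mixture of salvianolic acids of Salvia miltiorrhiza and total flavonoids of Anemarrhena asphodeloides. Livers were taken 24 h after SM, which is the only time measured, and the arrayed livers are a selection from groups of 10 rats. No group received MSTF without SM.

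The acute phase response is driven by cytokines, chiefly interleukin-6 and interleukin-1, that reach the hepatocyte from macrophages and injured tissue. Interleukin-6 binds its receptor and the shared subunit gp130 and activates the transcription factor STAT3, while interleukin-1 acts through NF-kB, and C/EBP factors and glucocorticoids add to both. Positive acute phase proteins go up in this response and negative ones, such as albumin and transthyretin, go down. In the rat, alpha-2-macroglobulin (A2m), alpha-1-acid glycoprotein (Orm1) and fibrinogen (Fga, Fgb, Fgg) are classical responders, whereas C-reactive protein (Crp) already circulates in healthy animals.

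Signals are quantile-normalized log2 intensities, so that a difference of 1 is a doubling, and levels of different probes are not compared because probes differ in brightness. Between 52.0% and 58.6% of probes were well above background on an array of the control group, between 57.4% and 61.5% in the SM group and between 53.4% and 58.0% in the SM + MSTF group, and no spot was saturated. The 4 SM arrays lay on a slide of their own, so SM and slide cannot be told apart. SM + MSTF replicate 3 shared a slide with the 3 controls, and SM + MSTF replicates 1 and 2 lay on the third slide. A gene was called changed where limma gave a Benjamini-Hochberg adjusted p under 0.05 over 23007 tested probes and the change was at least 1.5-fold. Means are given ± SD and log2 fold changes with their standard error (SE). In whole liver, fewer cells of a type and less RNA per cell cannot be told apart.

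The 3 fibrinogen genes lie together on rat chromosome 2, and their promoters are shown with those of Lcn2 and Orm1 because these 5 genes turned out to peak on different rats. The stretches are the 250 bases upstream of the RefSeq start site in the assembly GRCr8, read along the strand of the gene. They lie at chr2:170652833-170653082 (Fgg, plus strand), chr2:170671919-170672168 (Fga, plus strand), chr2:170700876-170701125 (Fgb, minus strand), chr3:36081781-36082030 (Lcn2, minus strand) and chr5:81788259-81788508 (Orm1, plus strand). Capitals mark CTGGGAA, the core of an interleukin-6 response element known from liver acute phase genes.
Fgg: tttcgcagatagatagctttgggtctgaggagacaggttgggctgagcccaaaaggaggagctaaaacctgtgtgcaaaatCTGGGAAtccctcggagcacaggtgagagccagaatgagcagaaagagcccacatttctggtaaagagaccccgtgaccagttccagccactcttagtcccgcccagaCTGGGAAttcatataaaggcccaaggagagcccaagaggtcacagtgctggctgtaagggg
Fga: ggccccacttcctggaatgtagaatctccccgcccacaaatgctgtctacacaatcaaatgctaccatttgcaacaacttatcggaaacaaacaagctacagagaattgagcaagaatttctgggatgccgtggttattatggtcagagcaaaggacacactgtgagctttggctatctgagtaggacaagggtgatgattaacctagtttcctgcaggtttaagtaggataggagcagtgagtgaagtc
Fgb: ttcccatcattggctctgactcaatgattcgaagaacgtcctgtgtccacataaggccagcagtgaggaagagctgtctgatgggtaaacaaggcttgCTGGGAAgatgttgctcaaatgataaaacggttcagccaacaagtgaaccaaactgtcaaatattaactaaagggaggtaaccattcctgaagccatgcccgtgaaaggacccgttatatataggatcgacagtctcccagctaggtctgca
Lcn2: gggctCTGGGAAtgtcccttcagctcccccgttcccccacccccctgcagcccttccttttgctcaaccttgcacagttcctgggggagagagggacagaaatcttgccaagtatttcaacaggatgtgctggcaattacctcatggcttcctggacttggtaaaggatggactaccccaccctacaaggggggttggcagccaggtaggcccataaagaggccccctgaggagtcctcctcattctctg
Orm1: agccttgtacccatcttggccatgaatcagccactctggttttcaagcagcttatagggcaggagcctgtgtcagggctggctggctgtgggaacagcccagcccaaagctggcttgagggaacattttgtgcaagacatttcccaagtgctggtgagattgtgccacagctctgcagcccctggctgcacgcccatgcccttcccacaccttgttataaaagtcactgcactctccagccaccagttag

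RefSeq windows running from 250 bases before to 50 bases after the start site were given for 7 of the 10 genes, with 2 start sites for Fga. CTGGGAA, on either strand, stood in the windows of 4 of these 7 genes (Fgg, Fgb, Lcn2 and Itih4), against 11.3% of all 33469 rat windows of that length. Fgg held it 2 times, 169 and 61 bases before the start, Fgb once at 152 bases and Lcn2 once at 245 bases. The STAT palindrome TTCNNNGAA was found in 3 of the 7 genes (Fga, Fgb and Itih4; 8.87% of all windows). In Itih4 it overlapped CTGGGAA. TTGCNNAA, a form of the C/EBP motif, was found in 5 of the 7 (10.6% of all windows) and GTTAAT, a short form of the HNF1 motif, in 2 of the 7 (7.45% of all windows). A match is a description of the letters and was not tested for binding or activity.

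Lcn2 encodes lipocalin 2, which binds bacterial siderophores and so withholds iron from microbes. Its log2 signal was 8.04, 8.91 and 7.54 in control replicates 1 to 3. In the SM group it was 9.49, 8.13, 7.47 and 12.41 in replicates 1 to 4. In the SM + MSTF group it was 14.46, 9.04 and 8.28 in replicates 1 to 3. SM + MSTF replicate 1 and SM replicate 4 stood far above all other arrays, and the remaining 8 arrays lay between 7.47 and 9.49 with the 3 groups overlapping. The range from SM replicate 3 to SM + MSTF replicate 1 was 127-fold. Within the SM group the highest array exceeded the lowest 30.7-fold, and within the SM + MSTF group 72.4-fold, against 2.59-fold within the control group.

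Lcn2 averaged 8.16 ± 0.70 (SD, n = 3) in the control group. The average was 9.37 ± 2.19 (SD, n = 4) after SM and 10.59 ± 3.37 (SD, n = 3) after SM with MSTF. The log2 fold change was 1.21 (SE 1.52, limma adjusted p = 0.748) in SM versus control and 2.43 (SE 1.63, adjusted p = 0.660) in SM + MSTF versus control. For SM + MSTF versus SM it was 1.22 (SE 1.52, adjusted p = 0.712). None of these differences passed the test, and the groups overlapped in each. Without SM + MSTF replicate 1 the last value was -0.71, and without SM replicate 4 the first was 0.20.

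Orm1 encodes alpha-1-acid glycoprotein, a carrier of basic drugs and steroids in plasma. On the log2 scale it gave 15.02, 15.52 and 15.19 in the controls. It was 15.98, 15.44, 15.21 and 16.84 in SM replicates 1 to 4 and 17.93, 15.31 and 15.97 in SM + MSTF replicates 1 to 3. The highest array and the next highest were the same as for Lcn2. Here SM replicate 1 and SM + MSTF replicate 3 also lay above every control, while SM replicates 2 and 3 and SM + MSTF replicate 2 lay within the control range. Fitted log2 fold changes were 0.63 (SE 0.58, adjusted p = 0.645) in SM versus control, 1.16 (SE 0.62, adjusted p = 0.584) in SM + MSTF versus control and 0.54 (SE 0.58, adjusted p = 0.662) in SM + MSTF versus SM. Leaving out SM + MSTF replicate 1 took the last of these to -0.23.

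Lbp encodes lipopolysaccharide-binding protein, which hands bacterial endotoxin to CD14. The log2 values were 10.31, 10.50 and 10.13 in control, 11.24, 10.59, 10.17 and 11.05 in SM and 11.21, 10.36 and 12.84 in SM + MSTF. SM + MSTF replicate 3 was highest, 5.79-fold over the control mean, and not SM + MSTF replicate 1 as for Lcn2 and Orm1. SM replicates 1, 2 and 4 and SM + MSTF replicate 1 also lay above every control, and SM replicate 3 and SM + MSTF replicate 2 lay within the control range. Fitted log2 fold changes were 0.45 (SE 0.50, adjusted p = 0.707) in SM versus control, 1.16 (SE 0.53, adjusted p = 0.533) in SM + MSTF versus control and 0.71 (SE 0.50, adjusted p = 0.491) in SM + MSTF versus SM. Without SM + MSTF replicate 3 the latter 2 were 0.47 and 0.02.

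**Figure D1:**
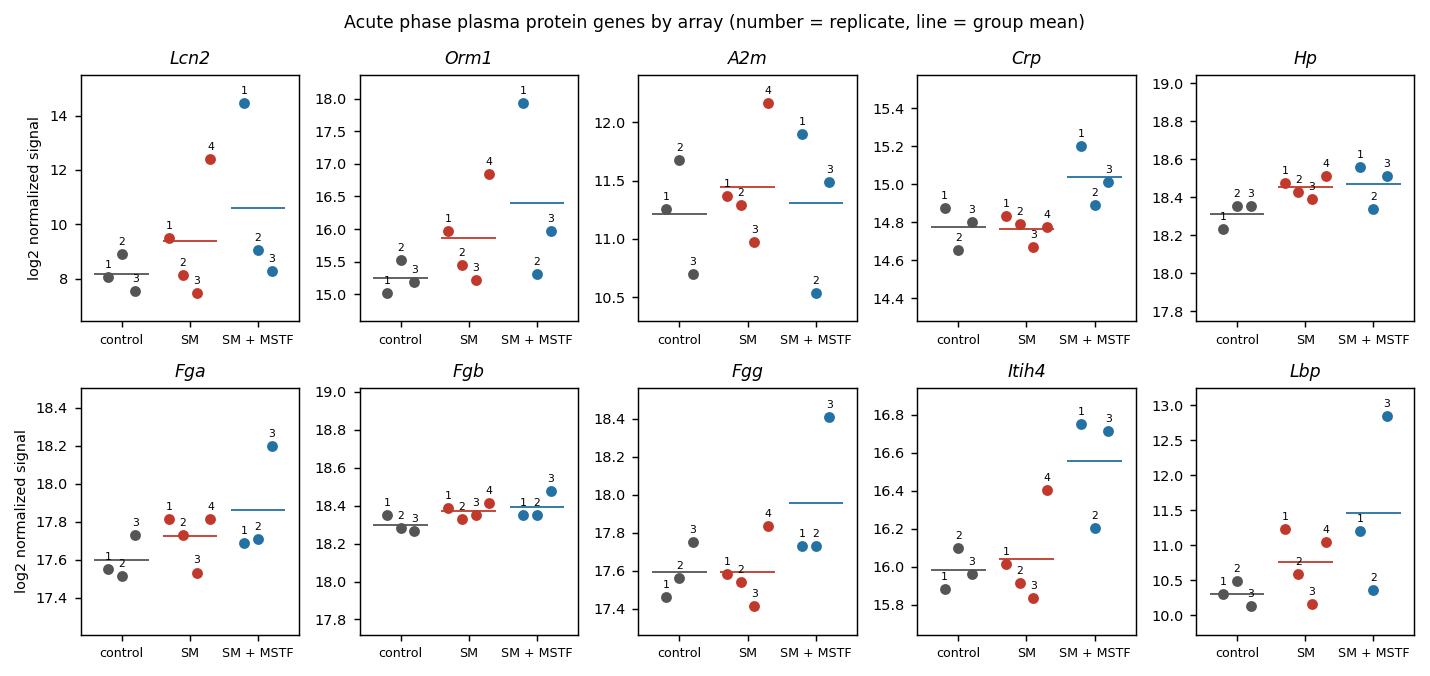
Log2 normalized signal of the 10 genes on each array, with the scale of each panel set to its gene. Points are arrays numbered by replicate and lines are group means (control n = 3, SM n = 4, SM + MSTF n = 3). Lcn2 and Orm1 peak in SM + MSTF replicate 1, and the fibrinogen genes and Lbp in SM + MSTF replicate 3.

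The fibrinogen chains, which form the clot, were among the brightest probes of the array, with 0.122% of probes brighter than Fga, 0.0341% brighter than the brighter Fgb probe and 0.127% brighter than the brighter Fgg probe. The log2 signal of Fga was 17.55, 17.51 and 17.73 in control, 17.81, 17.73, 17.53 and 17.81 in SM and 17.69, 17.71 and 18.20 in SM + MSTF. The brighter Fgb probe gave 18.35, 18.28 and 18.26 in control, 18.39, 18.33, 18.35 and 18.41 in SM and 18.35, 18.35 and 18.48 in SM + MSTF. The groups overlapped for both genes, and SM + MSTF replicate 3 was the highest array of each.

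For Fgg the brighter probe gave 17.46, 17.56 and 17.75 in control, 17.58, 17.54, 17.42 and 17.84 in SM and 18.41 in SM + MSTF replicate 3 against 17.73 in replicates 1 and 2. The single array at the top was again SM + MSTF replicate 3, 1.76-fold over the control mean for Fgg, 1.51-fold for Fga and 1.13-fold for the brighter Fgb probe. The second Fgb probe, at 18.67 on that array, was 0.67 above its lowest array, where the brighter probe ranged over 0.21 in all. The second Fgg probe ranged from 16.79 to 17.70, with its top on the same array. Both probes of Fgb and both of Fgg thus placed SM + MSTF replicate 3 first.

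In SM versus control the log2 fold changes were 0.12 (SE 0.14) for Fga, 0.07 (SE 0.08) for Fgb and 0.0022 (SE 0.18) for Fgg, with limma adjusted p of 0.718, 0.710 and 0.997. Against control, SM + MSTF gave 0.26 (SE 0.15), 0.09 (SE 0.08) and 0.37 (SE 0.19), with adjusted p of 0.609, 0.749 and 0.579. Against SM, it gave 0.14 (SE 0.14), 0.02 (SE 0.08) and 0.36 (SE 0.18), with adjusted p of 0.639, 0.900 and 0.346. The second Fgg probe gave 0.44 (SE 0.17, adjusted p = 0.468) in SM + MSTF versus control, with all SM + MSTF arrays above all controls, unlike the brighter probe.

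Itih4 encodes a heavy chain of the inter-alpha-trypsin inhibitor family. Signals of 15.88, 16.10 and 15.96 in control, 16.01, 15.92, 15.83 and 16.41 in SM and 16.75, 16.20 and 16.71 in SM + MSTF were measured (log2). All 3 SM + MSTF arrays lay above all 3 controls, while SM overlapped both groups. Its log2 fold change was 0.57 (SE 0.18, unadjusted p = 0.0114, limma adjusted p = 0.423) in SM + MSTF versus control and 0.51 (SE 0.17, unadjusted p = 0.0145, adjusted p = 0.203) in SM + MSTF versus SM. In SM versus control it was 0.06 (SE 0.17, adjusted p = 0.895).

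Crp encodes C-reactive protein, a pentraxin that binds phosphocholine on microbes and dying cells. Its brighter probe gave 14.88, 14.65 and 14.80 in control, 14.83, 14.79, 14.67 and 14.77 in SM and 15.20, 14.89 and 15.01 in SM + MSTF. The SM + MSTF arrays lay above all arrays of both other groups, with only 0.0165 between SM + MSTF replicate 2 and control replicate 1. Its log2 fold change was 0.26 (SE 0.11, unadjusted p = 0.0409, limma adjusted p = 0.503) in SM + MSTF versus control and 0.27 (SE 0.10, unadjusted p = 0.0263, adjusted p = 0.254) in SM + MSTF versus SM. Both were under 1.5-fold. The difference between SM and control was -0.01 (SE 0.10, adjusted p = 0.974). The second Crp probe also had all SM + MSTF arrays above all arrays of the other groups, with differences of 0.28 (SE 0.14) from control and 0.37 (SE 0.13) from SM.

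Hp encodes haptoglobin, which captures free haemoglobin. The single Hp probe gave 18.23, 18.35 and 18.35 in control, 18.48, 18.43, 18.39 and 18.51 in SM and 18.56, 18.34 and 18.51 in SM + MSTF. All 4 SM arrays lay above all 3 controls, whereas SM + MSTF overlapped both groups. The log2 fold change was 0.14 (SE 0.09, adjusted p = 0.484) in SM versus control, 0.16 (SE 0.09, adjusted p = 0.625) in SM + MSTF versus control and 0.02 (SE 0.09, adjusted p = 0.930) in SM + MSTF versus SM. With 9 of the 41012 probes brighter on average, Hp was close to the top of the signal scale, where quantile normalization gives every array the same few values.

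A2m encodes alpha-2-macroglobulin, a broad protease inhibitor. The A2m probe gave 11.26, 11.68 and 10.698 in control, 11.37, 11.29, 10.98 and 12.16 in SM and 11.90, 10.54 and 11.49 in SM + MSTF. The 3 groups overlapped, and the control range alone spanned 1.97-fold. The highest array was SM replicate 4, followed by SM + MSTF replicate 1. The log2 fold change was 0.24 (SE 0.38, adjusted p = 0.806) in SM versus control, 0.10 (SE 0.40, adjusted p = 0.955) in SM + MSTF versus control and -0.14 (SE 0.38, adjusted p = 0.874) in SM + MSTF versus SM.

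In SM versus control, 0 of the 10 genes were called, where 2.4% of all tested probes were, and 0 had an unadjusted p under 0.05, where 16.4% of all tested probes did. The fitted difference was above 0 in 9 of the 10, all but Crp, with a median of 0.13 against 0.03 over all tested probes. Hp alone of the 10 had all SM arrays above all controls, which 10.1% of all tested probes did. In SM + MSTF versus control, 0 of the 10 were called, and so were 0% of all tested probes. The difference was above 0 in 10 of 10, with a median of 0.32 against 0.00479 over all tested probes. Crp and Itih4 had an unadjusted p under 0.05 (2 of 10, against 9.54% of all tested probes) and were also the 2 genes with no overlap (8.08% of all tested probes in the same direction). These counts use the brighter probes, and the second Fgg probe met both as well (limma unadjusted p = 0.0262). The first count was 3 with the mean of a gene's probes, 75th percentile scaling or normexp. It was 1 with only the groups compared in the fit or the methods' t-test.

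In SM + MSTF versus SM, 0 of the 10 were called, where 1.28% of all tested probes were. The difference was above 0 in 9 of the 10, all but A2m, with a median of 0.32 against -0.02 over all tested probes. Crp and Itih4 had an unadjusted p under 0.05 (2 of 10, against 15.9%), and Crp had no overlap (5.91% of all tested probes in the same direction). Any 2 of the comparisons share the arrays of a group (control, SM or SM + MSTF) and so are not independent of each other. The values of Crp and Itih4 against control and against SM rest on the same SM + MSTF arrays.

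**Figure D2:**
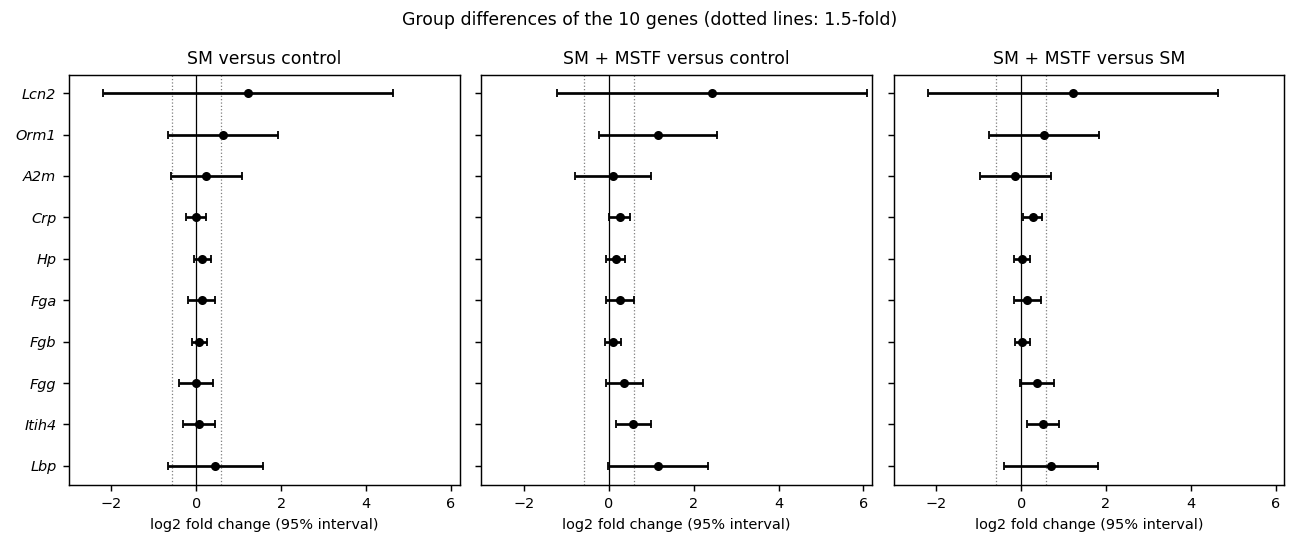
Log2 fold change of the 10 genes in the 3 comparisons, with 95% intervals from the limma fit over all 10 arrays. The intervals are widest for Lcn2, Orm1 and Lbp, and those that exclude 0 are those of Crp and Itih4 for SM + MSTF against either other group.

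The 10 genes differed widely in their spread between rats of a group. The residual SD within groups was 2.33 for Lcn2, 0.88 for Orm1 and 0.75 for Lbp, above 99.96%, 98.1% and 97.1% of tested probes, and the median over all tested probes was 0.20. A2m followed at 0.56, above 94.0% of tested probes. At the other end, the brighter Fgb probe had 0.05, Hp 0.08 and Crp 0.11. The first 2 of these sit at the top of the signal scale, and the second Fgb probe had 0.18, above 41.9% of tested probes. For Fga (0.19), Itih4 (0.24) and Fgg (0.25) the spread was close to the median of all probes. Of the 10 genes, 3 lay above the 95th percentile of 0.61.

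**Figure D3:**
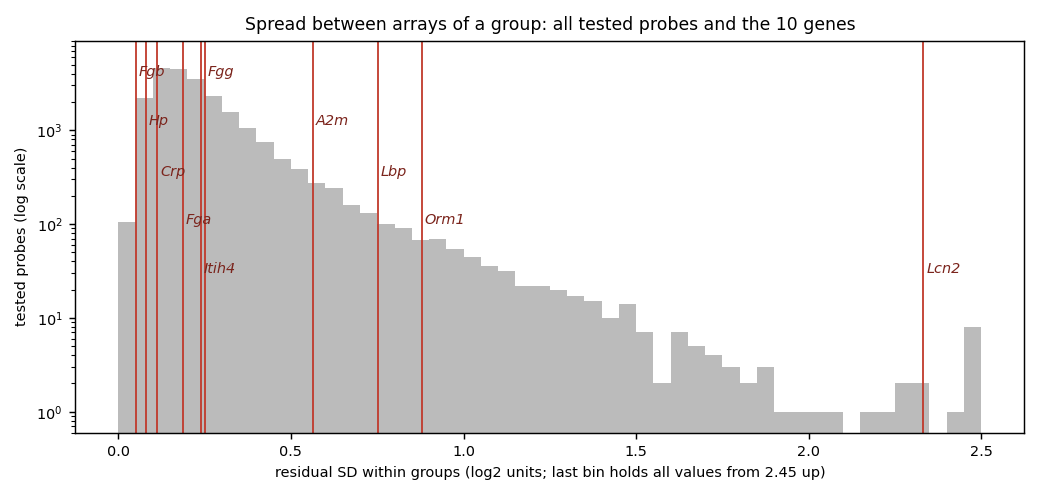
Residual SD within groups (log2 units) of all 23007 tested probes, as a histogram on a log scale, with the brighter probe of each of the 10 genes as a vertical line. Lcn2 at 2.33, Orm1 at 0.88 and Lbp at 0.75 lie in the upper tail, and Fgb at 0.05 and Hp at 0.08 at the lower end.

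Rat by rat, SM + MSTF replicate 1 was the highest array for 5 genes (Lcn2, Orm1, Crp, Hp and Itih4), SM + MSTF replicate 3 for 4 (Fga, Fgb, Fgg and Lbp) and SM replicate 4 for A2m. SM replicate 4 lay above every control for 9 of the 10 genes, SM + MSTF replicate 3 for 8, SM + MSTF replicate 1 for 7 and SM replicate 1 for 6. The count was 3 for SM + MSTF replicate 2 and 2 each for SM replicates 2 and 3. These are descriptions of single rats, each with 1 array and no repeat measurement.

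Set against the control mean, SM + MSTF replicate 1 was at least 1.5-fold higher for 5 of the 10 genes (Lcn2, Orm1, A2m, Itih4 and Lbp), as were 3.66% of all tested probes on that array. SM + MSTF replicate 3 was so for 5 (Orm1, Fga, Fgg, Itih4 and Lbp; 6.03% of all tested probes), SM replicate 4 for 4 (Lcn2, Orm1, A2m and Lbp; 5.35%) and SM replicate 1 for 3 (Lcn2, Orm1 and Lbp; 6.23%). SM + MSTF replicate 2 passed this fold for Lcn2 alone (4.06%), and SM replicates 2 and 3 for 0 of the 10 (5.36% and 5.77%). Lcn2 in SM + MSTF replicate 1 was 78.6-fold above the control mean and Orm1 6.45-fold, whereas on the same array Fga was 1.06-fold, Fgb 1.04-fold and Fgg 1.10-fold. In SM + MSTF replicate 3, Lcn2 was 1.09-fold and Orm1 1.66-fold.

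The genes whose pattern over the 10 arrays was nearest to that of Lcn2, by the root mean square difference of centred log2 values among 11800 named probes outside the 10 genes, were Wfdc21 (1.16), Cacna1g (1.28), Sema4f (1.34), Or2n1l (1.34) and Dpf2 (1.5). Wfdc21 encodes a small secreted protein with a whey acidic protein domain. Its log2 signal was 14.83, 14.66 and 14.12 in control, 15.15, 14.54, 14.34 and 16.50 in SM and 17.72, 14.20 and 14.88 in SM + MSTF, with the same 2 arrays at the top as Lcn2. Cacna1g, Sema4f and Or2n1l were dim probes, well above background on 0, 1 and 0 of the 3 controls. Of the 10 genes, Orm1 was nearest to Lcn2 (1.37), with 4 probes nearer, and Fga was farthest (2.16). The values were not scaled, so this measure reflects the size of a gene's range as well as its order of arrays.

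Among 26 other positive acute phase genes that were tested of 27 listed, 0 were called in any of the 3 comparisons. Above 0 were 18 of the 26 in SM versus control (median 0.11), 21 in SM + MSTF versus control (median 0.27) and 20 in SM + MSTF versus SM (median 0.23). Of the 26, 9 had an unadjusted p under 0.05 in SM + MSTF versus control, all above 0, where 4.37% of all tested probes were so. In SM versus control 0 of the 26 had one (16.4% of all tested probes), and in SM + MSTF versus SM 3 (15.9%). No array had Reg3b well above background.

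Kng1 encodes kininogen, a precursor of kinins and in the rat an acute phase protein. The log2 values were 15.27, 15.34 and 15.28 in control, 16.43, 15.72, 15.19 and 16.62 in SM and 17.71, 15.61 and 17.37 in SM + MSTF, a log2 difference of 1.60 (SE 0.52, limma adjusted p = 0.424) between SM + MSTF and control. The arrays at the top were SM + MSTF replicates 1 and 3, which between them were also highest for all of the 10 genes but A2m. Rat kininogen genes are close in sequence, so probes for Kng1 and Kng2 may read each other's RNA. Spink1, a secreted trypsin inhibitor, had 9.12, 9.44 and 9.10 in control, 10.702, 10.61, 8.01 and 11.55 in SM and 12.03, 9.20 and 11.69 in SM + MSTF, with the same arrays at the top. Hamp, which encodes the iron hormone hepcidin, was 16.16, 16.46 and 16.51 in SM + MSTF, above all controls (10.82, 14.11 and 14.91) and all SM arrays (14.93, 9.92, 12.32 and 12.07). Its log2 difference was 4.07 (SE 1.16, adjusted p = 0.147) between SM + MSTF and SM, and SM + MSTF replicate 2, near control for most of the 10 genes, was as high as the other two.

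**Figure D4:**
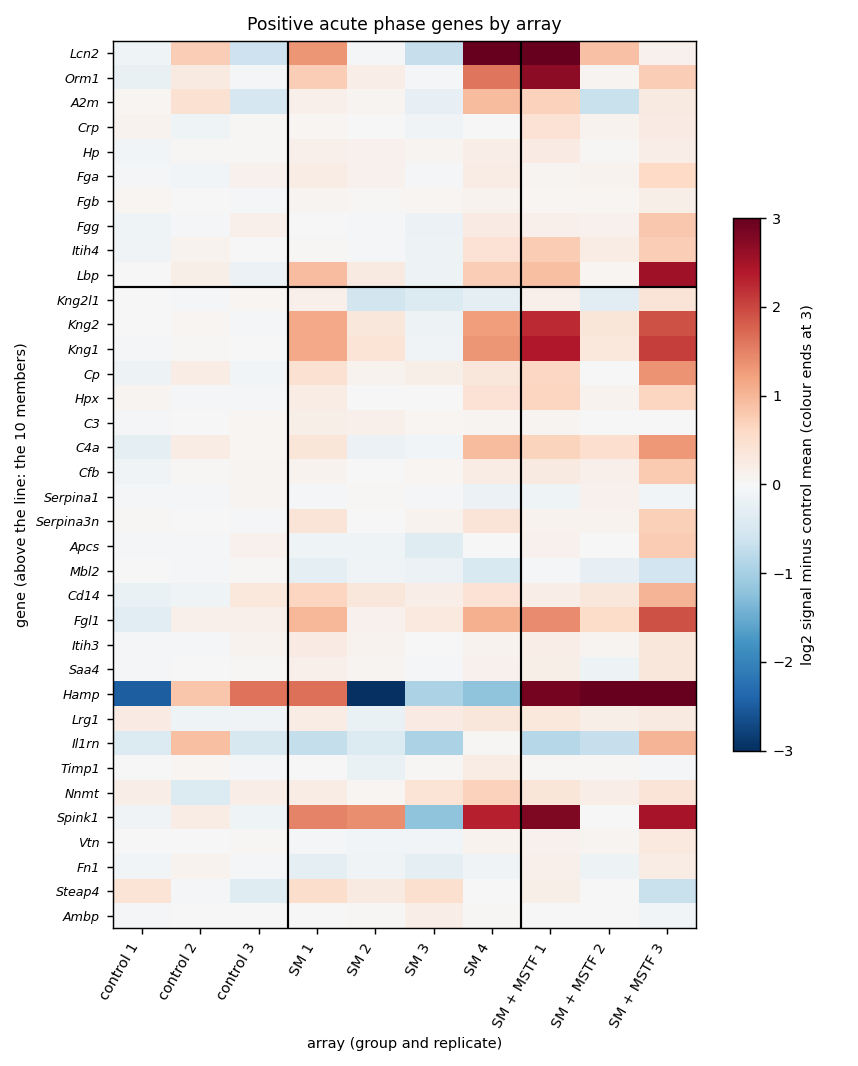
Log2 signal minus the control mean for the 10 genes (above the line) and the 26 other positive acute phase genes tested, by array; colour ends at 3 in either direction. SM replicates 1 and 4 and SM + MSTF replicates 1 and 3 carry most of the high values, and Lcn2 is at 6.30 in SM + MSTF replicate 1.

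Of 13 negative acute phase genes tested, 0 were called by limma, with 2, 3 and 2 at an unadjusted p under 0.05 in the 3 comparisons (16.4%, 9.54% and 15.9% of all tested probes). In SM versus control 11 of the 13 were below 0 (median -0.08). Under scaling to the 75th percentile of each array 7 of 13 were (median -0.0080). How far this group lay below 0 thus depends on the scaling. Above the median of all tested probes were 2 of the 13 in the values reported and 4 under that scaling. Serpina6, the plasma carrier of corticosterone, was 13.24, 13.52 and 13.38 in control and 12.80, 13.15, 13.00 and 13.09 in SM, with no overlap (log2 difference -0.37, SE 0.12, limma adjusted p = 0.163). F12, coagulation factor XII, showed -0.27 (SE 0.09, limma adjusted p = 0.174) and Hrg, histidine-rich glycoprotein, 0.23 (SE 0.12, limma adjusted p = 0.389), both without overlap. Of the 13 genes, 2 had all SM arrays above all controls, as did 10.1% of all tested probes. All SM arrays lay below all controls for 4 of the 13, and the share of all tested probes in that direction is not given here.

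Of 20 signalling genes tested, the ligands Il6, Tnf and Osm were not among them, since Il6 and Tnf were well above background on 1 SM array each and Osm on none. Il22ra1, a receptor subunit for interleukin-22, was the gene called. Its log2 signal was 5.63, 5.37 and 5.60 in control, 6.11, 6.32, 6.01 and 6.24 in SM and 5.21, 5.09 and 5.39 in SM + MSTF. It rose in SM versus control (log2 fold change 0.64, SE 0.12, limma adjusted p = 0.0271) and was lower in SM + MSTF versus SM (-0.94, SE 0.12, adjusted p = 0.00657), with no overlap in either. The first call was lost when any 1 of the 7 arrays was left out and with slide as a random block, and the second was kept under both. The SM arrays shared no slide with another group, so a slide block cannot separate SM from slide in either comparison. Neither call held with normexp background correction, which gave 0.24 and -0.33, or with the replicate number as a block, which gave 0.61 and -0.92 (limma adjusted p = 0.109 and 0.065). Cebpb, which encodes the factor C/EBP beta, was 8.65, 9.11 and 9.01 in control, 9.66, 8.73, 9.45 and 10.10 in SM and 9.71, 9.98 and 9.72 in SM + MSTF. Its difference was 0.56 (SE 0.27, adjusted p = 0.353) in SM and 0.88 (SE 0.29, adjusted p = 0.425) in SM + MSTF versus control. Osmr, the oncostatin M receptor, was well above background on 1 of 3 controls, 4 of 4 SM arrays and 2 of 3 SM + MSTF arrays, with a difference of 0.51 (SE 0.39, adjusted p = 0.567) between SM and control.

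All 13 hepatocyte markers on the array were well above background on every array, with a mean log2 signal of 14.19 to 14.48 in control, 14.28 to 14.49 in SM and 14.31 to 14.64 in SM + MSTF, and 0 were called, with 0, 1 and 0 at an unadjusted p under 0.05 (the largest differences in SM versus control were G6pc1 at 0.41, Pck1 at -0.39 and Tdo2 at 0.37). Lcn2 is also a granule protein of neutrophils. Of 13 neutrophil markers on the array, 5 were tested and 0 called (0, 0 and 1 at an unadjusted p under 0.05), while Elane, Camp, Mmp8 and Csf3r were well above background on 0 arrays. Of the other markers not tested, Ctsg was well above background on 1 array of each group, Ngp on 1, 2 and 1 arrays of control, SM and SM + MSTF, Mmp9 on 1, 0 and 1, and Cxcr2 on 1 SM + MSTF array. The mean log2 signal of the 5 ranged from 7.46 to 7.90 in control. It was 8.72, 7.54, 7.55 and 8.48 in SM replicates 1 to 4 and 8.04, 7.56 and 8.45 in SM + MSTF replicates 1 to 3. SM replicates 1 and 4 and SM + MSTF replicates 1 and 3 thus lay above every control. The calprotectin subunit gene S100a8 was 6.37, 7.58 and 7.01 in control, 9.29, 6.78, 6.67 and 8.23 in SM and 8.64, 7.09 and 8.32 in SM + MSTF. S100a9, the other subunit, was 7.34, 8.25 and 8.07 in control, 9.82, 7.35, 7.62 and 9.20 in SM and 8.76, 7.46 and 8.53 in SM + MSTF. Both were highest in SM replicate 1, where Lcn2 was at 9.49. In SM + MSTF replicate 1, where Lcn2 was at 14.46, both also lay above every control. Prtn3, a granule protease, was lowest in SM + MSTF replicate 1, at 5.83, and highest in SM replicate 2, at 7.44. Their part in the Lcn2 values was not tested.

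Markers of Kupffer cells, the liver macrophages, were 11, with 0 called by limma and 0, 0 and 4 at an unadjusted p under 0.05 (16.4%, 9.54% and 15.9% of all tested probes). All 11 were below 0 in SM versus control (10 of 11 under scaling to the 75th percentile) and all 11 above 0 in SM + MSTF versus SM under both scalings, led by Marco at -0.60 (SE 0.27, limma adjusted p = 0.316) and 0.95 (SE 0.27, adjusted p = 0.147). In SM + MSTF versus control, all 11 were above 0 as well under both scalings (median 0.25), and 4 of them had no overlap (8.08% of all tested probes in the same direction). Clec4f and C1qb were at -0.36 and -0.20 in SM versus control. The mean log2 signal of the 11 was 11.11 to 11.34 in control. It ran from 10.67 in SM replicate 2 to 11.44 in SM replicate 4, which lay above every control. In SM + MSTF it was 11.43 to 11.46, so that SM + MSTF replicate 2, near control for most of the 10 genes, was level with SM + MSTF replicates 1 and 3. Of 5 lymphocyte markers tested, Klrd1, a natural killer cell receptor, fell in SM versus control (-1.22, SE 0.23, adjusted p = 0.0273) and was higher in SM + MSTF versus SM (1.15, SE 0.23, adjusted p = 0.0443). It was well above background on 2 of the 4 SM arrays, and the calls were lost under 10 and 13 of 20 alternatives. Cd79b, of B cells, was at -2.18 (SE 0.66, adjusted p = 0.126, but called at 0.0146 with only SM and control in the fit) and Nkg7 at -0.27 (SE 0.32, adjusted p = 0.727). Of 7 endothelial, stellate and biliary markers 0 were called (1, 1 and 0 at an unadjusted p under 0.05), with Col1a1 at -0.99 (SE 0.38, adjusted p = 0.235), Krt19 at 0.34 and Des at 0.20 in SM versus control. Col1a1 was called with only SM and control in the limma fit (adjusted p = 0.0091). The part of these cell types in the values of the 10 genes was not tested.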

How the data were processed

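The authors hybridized Cy3-labelled liver RNA to one-colour Agilent Whole Rat Genome arrays and quantified the spots with Feature Extraction 10.7. The deposited scanner files hold a background-subtracted intensity per spot, and the deposited log2 values were quantile normalized by the authors and served here as an alternative. Samples were grouped by their labels, 1 array per rat (control 3, SM 4, SM + MSTF 3).

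Control spots were left out, as were those flagged as not uniform (0 to 4 per array) or as outliers (74 to 115 per array). The 10 arrays were put on the log2 scale, quantile normalized and averaged per probe. A probe was kept where 1 group or more had it well above background on all its arrays, which held for 23007 of 41012. Limma 3.58.1 in R 4.3.3 fitted all 10 arrays at once (lmFit and eBayes), as checked on simulated data, with Benjamini-Hochberg adjustment over these probes. A gene was read by its brightest probe. Gene names came from RefSeq accessions (GRCr8), which named 17512 probes.

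The 10 genes, the other lists and the tests were chosen with earlier results of these data known. Named besides the 10 genes are, from each list, the genes called or else the 3 with the largest difference between SM and control (a called gene counts among them), and the 5 probes nearest to the gene of widest range. Alternatives were 75th percentile scaling, the deposited log2 values, normexp with an offset of 50, other filters, only the groups compared, no fold minimum, the methods' t-test, replicate or slide as a block, the mean of a gene's probes, and each array left out. Precision is limited by the 10 arrays. The p-values set each difference against the spread between arrays of a group, which for SM holds no spread between slides.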

Additional observations from a re-analysis of the deposited data

How the results depend on the processing

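Of the differences of the 10 genes over 3 comparisons, 422 of 430 values under the alternatives that keep all arrays had the direction and call of the values reported, and 180 of 200 with 1 array left out. The first count includes alternatives that could not turn a direction. The probe filters, only the groups compared, no fold minimum and the methods' t-test leave the fold changes as they were. With 0 of the 10 genes called in the values reported, a call could be gained but not lost. With slide as a fixed block, SM + MSTF versus control rests on SM + MSTF replicate 3 against the controls of its slide, an array assumed to vary like the others. Only an effect size is given for it, a log2 fold change of 2.53 for Lbp. The sign turned for Crp in SM versus control with 75th percentile scaling (0.13) and normexp (0.022), and for Fgg with the deposited log2 values (-0.014). Replicate numbers do not pair the arrays: deviations of the 9 same-number pairs correlated between -0.0993 and 0.17, and 3 arrays correlated best with their own number. With the replicate block, which leaves SM replicate 4 without a partner, the differences were -0.0016 for A2m, -0.078 for Fgg and -0.060 for Itih4 in SM versus control, while A2m stood at 0.098 in SM + MSTF versus SM. Over all probes it left 52 calls of 552 in SM versus control and 65 calls of 295 in SM + MSTF versus SM, and it changed no call among the 10 genes.

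With each array left out in turn, 0 of the 10 genes were called in any comparison. In SM versus control the log2 fold change ran from -0.020 to 0.47 for A2m (low without control replicate 3), -0.072 to 0.040 for Crp, -0.078 to 0.081 for Fgg and -0.060 to 0.13 for Itih4 (both low without SM replicate 4), and from -0.14 to 0.84 for G6pc1. In SM + MSTF versus control it ran from -0.20 to 0.48 for A2m. In SM + MSTF versus SM it ran from -0.44 to 0.25 for A2m, -0.71 to 2.38 for Lcn2, -0.23 to 1.08 for Orm1 and -0.025 to 0.084 for Hp (these 4 low without SM + MSTF replicate 1), and from -0.027 to 0.23 for Fga and -0.018 to 0.044 for Fgb (both low without SM + MSTF replicate 3).

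Calls over all probes in SM versus control numbered 216 with normexp, 338 without a filter, 340 for probes above background on all arrays, 86 with slide as a random block (correlation within slide 0.108) and 61 to 325 with 1 array left out. The corresponding counts in SM + MSTF versus SM were 60, 276, 140, 103 and 97 to 293, and 149 with only the groups compared in the fit. The methods' t-test called 1134, 284 and 863 probes in the 3 comparisons at its unadjusted p and 323, 0 and 13 after Benjamini-Hochberg adjustment, 0 of the 10 genes among them. In SM versus control its unadjusted p called Cd79b and Col1a1, and after adjustment it still called Col1a1 (adjusted p = 0.0492) and lost Il22ra1 (0.0661, and 0.112 in SM + MSTF versus SM). SM + MSTF versus control gave 0 calls by limma (2195 at an unadjusted p under 0.05) and 248 without SM + MSTF replicate 3.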
